A study of Mus musculus with 16 samples.

Results

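Cytosolic ribosomal protein genes were followed across 4 groups of mouse aortas. Members were the probe sets annotated to exactly 1 symbol made of Rpl or Rps with a number and at most 1 further letter, or to Rplp0, Rplp1, Rplp2 or Rpsa, without the Rps6k kinases. The rule found 100 of 45101 probe sets. They covered 46 of 18194 symbols measured by probe sets with 1 symbol, 22 of the small subunit and 24 of the large subunit. Rplp1 had no probe set with a single symbol and so no member. Of the 100 probe sets, 84 (43 symbols) were bright enough to be tested, and Rps16, Rpl3l and Rpl39l had no tested probe set. A further 110 probe sets carried several symbols of which at least 1 was a ribosomal protein, often beside pseudogenes, and they fell outside the rule.

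The samples were whole aortas of 16 ApoE-/- mice, a strain without apolipoprotein E that develops atherosclerosis, and each mouse was hybridised to 1 Affymetrix array. The groups, of 4 mice each, were diabetic mice given ruboxistaurin (DM_RBX), diabetic mice (DM), non-diabetic mice given ruboxistaurin (NDM_RBX) and non-diabetic mice (NDM). All groups carried the ApoE deletion and ate a high fat diet for 10 weeks from 8 weeks of age, so they were 18 weeks old. Diabetes was induced with streptozotocin, which destroys pancreatic beta cells, at 6 weeks of age. Ruboxistaurin (RBX, LY333531) inhibits protein kinase C beta and was given in the diet. The comparisons ask how diabetes, the inhibitor and their combination moved these transcripts. In whole tissue, fewer cells of a type and less RNA per cell cannot be told apart.

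The cytosolic ribosome has a small subunit, which reads the messenger RNA, and a large subunit, which joins amino acids. Its proteins are made in matched amounts by many single-copy genes scattered over the genome, most with many processed pseudogenes. Their messenger RNAs are among the most abundant in any cell and start with a run of pyrimidines (the TOP motif) through which mTOR signalling controls their translation. Several ribosomal proteins also have roles off the ribosome, and a few have paralogs used in particular tissues.

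Promoter stretches of 8 genes are shown because the comparisons below turn on them, and they were chosen after their values were seen. RefSeq promoter windows of build GRCm38.p6 were found for 40 of the 46 symbols. Each stretch runs from 60 bases before the annotated start to 20 after it, 5′ to 3′ on the gene's strand. Capitals mark runs of 8 or more C or T letters anywhere in the stretch and the letters CGGAAG or CTTCCG, which is the core that ETS family factors bind. The run marked in Rpsa lies more than 25 bases before the annotated start, outside the window counted below. The first 6 are genes whose rise after RBX in non-diabetic mice passed the test under both scalings used here: Rpl27a (chr7:109519135-109519214, plus strand), Rpsa (chr9:120127706-120127785, plus), Rps15 (chr10:80292371-80292450, plus), Rplp2 (chr7:141447591-141447670, plus), Rpl4 (chr9:64173327-64173406, plus) and Rps10 (chr17:27635225-27635304, minus). Rpl41 (chr10:128549149-128549228, minus) had probe sets that moved both ways, and Rplp0 (chr5:115559407-115559486, plus) passed under 1 scaling only.
Rpl27a: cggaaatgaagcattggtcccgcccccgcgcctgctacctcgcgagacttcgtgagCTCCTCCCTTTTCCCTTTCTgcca
Rpsa: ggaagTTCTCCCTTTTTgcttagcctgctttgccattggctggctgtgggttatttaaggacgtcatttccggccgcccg
Rps15: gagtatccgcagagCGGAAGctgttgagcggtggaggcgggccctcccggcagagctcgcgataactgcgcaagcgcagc
Rplp2: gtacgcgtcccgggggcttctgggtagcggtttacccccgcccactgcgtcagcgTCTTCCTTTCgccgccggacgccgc
Rpl4: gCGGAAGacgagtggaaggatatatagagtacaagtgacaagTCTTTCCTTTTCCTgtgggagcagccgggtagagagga
Rps10: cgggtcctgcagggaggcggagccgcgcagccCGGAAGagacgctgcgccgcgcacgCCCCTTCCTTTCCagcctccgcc
Rpl41: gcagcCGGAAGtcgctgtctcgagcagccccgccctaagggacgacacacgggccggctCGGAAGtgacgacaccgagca
Rplp0: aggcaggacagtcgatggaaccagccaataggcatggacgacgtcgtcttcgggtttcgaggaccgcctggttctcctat

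A run of 8 or more C or T letters lay between 25 bases before and 24 after the start in 22 of the 48 member windows (45.8%), against 19.7% of all 32851 windows. In a second window of 20 bases on each side, also tried, the shares were 39.6% and 16.05%. CGGAAG on either strand was in 62.5% of member windows of 300 bases, against 16.9% of all windows. GCCATNTT on either strand, the core bound by YY1, was in 12.5% of member windows, against 6.05% of all. These matches describe the letters only, and annotated starts can be some bases off.

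Ribosomal proteins were among the brightest signals in the aorta. Of the 100 members, 57 lay at or above the 99th percentile of mean brightness over all probe sets, and 70 at or above the 90th. They made up 12.6% of the 452 probe sets at or above the 99th percentile. The 5 brightest genes were Rps29, a zinc-binding small-subunit protein, Rpl13a, which can leave the ribosome to silence inflammatory transcripts, Rps28, Rps14, whose loss underlies the anaemia of the 5q- syndrome in humans, and Rpl38, which in mice is needed for translation of Hox transcripts. The dimmest included Rpl14 and Rps27 among the tested genes, and Rpl39l, Rpl3l and Rps16 below the filter. These ranks used each gene's brightest probe set with 1 symbol. Probe sets with several symbols were not counted, so a low rank need not mean a scarce transcript. Rpl3l is the striated muscle paralog of Rpl3, and Rpl39l is a paralog of Rpl39 used in male germ cells. Its only 1-symbol probe set had the low intensities 461, 145, 143 and 190 in DM_RBX, 135, 169, 82.2 and 153 in DM, 371, 255, 1018 and 564 in NDM_RBX, and 164, 258, 411 and 130 in NDM. The NDM_RBX and NDM values overlapped, as did DM_RBX with every other group, while all NDM_RBX values lay above all DM values. None of this was tested.

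The authors had scaled each array to the same trimmed mean (2% left out at each end), so levels as deposited are relative to that mean. The cre spike-in control, which was the brightest probe set on every array, had a mean of 274245 in DM_RBX, 237370 in DM, 430027 in NDM_RBX and 187700 in NDM. The log2 ratio of 3′ to 5′ probe sets of Actb, a sign of RNA quality, averaged 1.71 in DM_RBX, 1.34 in DM, 2.08 in NDM_RBX and 1.04 in NDM. That of Gapdh averaged 0.39 in DM_RBX, 0.16 in DM, 0.31 in NDM_RBX and 0.13 in NDM. It overlapped between NDM_RBX (0.12 to 0.52) and NDM (0.0029 to 0.25). Rank correlations between arrays lay between 0.857 and 0.942, and no arrays were identical. All 12 smooth muscle markers were above the filter, as aorta should show, and none of the 9 lymphocyte markers was.

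The members' signal was highest in NDM_RBX and lowest in NDM. As deposited, the median log2 intensity of the 84 tested probe sets was 16.16, 16.15, 16.11 and 15.84 in the DM_RBX arrays and 15.98, 16.07, 15.98 and 15.99 in the DM arrays. It was 16.15, 16.20, 16.32 and 16.30 in the NDM_RBX arrays and 15.70, 15.72, 15.98 and 15.80 in the NDM arrays. All 4 NDM_RBX arrays lay above all 4 NDM arrays, and NDM replicate 3 lay at the level of the DM arrays. The members took 5.11% ± 0.27 of the summed signal in DM_RBX, 4.83% ± 0.17 in DM, 5.62% ± 0.21 in NDM_RBX and 4.36% ± 0.40 in NDM (SD, n = 4 each). After quantile normalization, which gives all arrays 1 distribution, the shares were 5.03%, 4.98%, 5.11% and 4.80%.

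**Figure D1:**
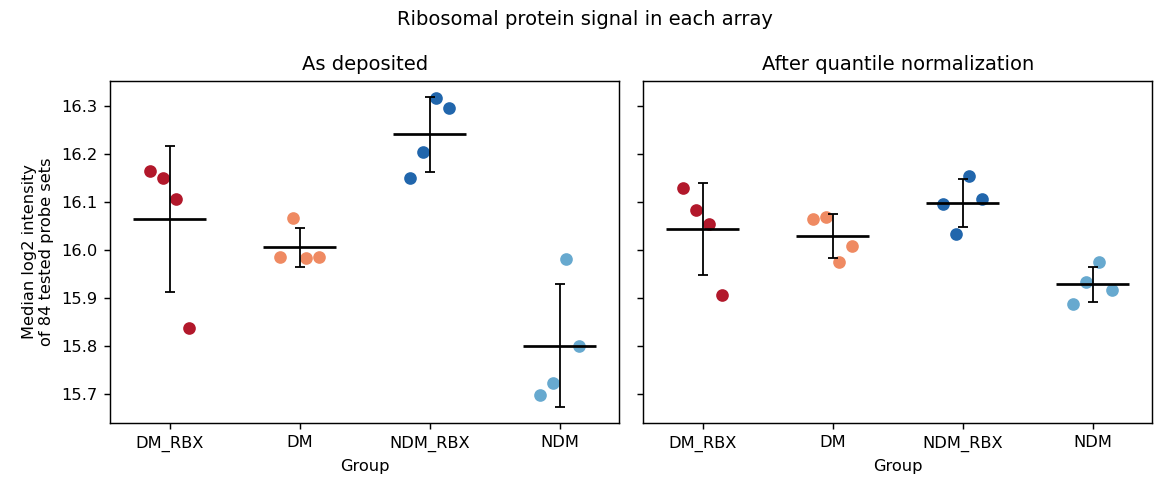
Median log2 intensity of the 84 tested ribosomal protein probe sets in each of the 16 arrays (points), by group, with the group mean (line) and SD (bar), as deposited at left and after quantile normalization at right. As deposited the group means were 16.06 in DM_RBX, 16.01 in DM, 16.24 in NDM_RBX and 15.80 in NDM, and after quantile normalization 16.04, 16.03, 16.10 and 15.93.

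RBX in non-diabetic mice gave the most calls among the members. In NDM_RBX against NDM, 57 of the 84 probe sets (34 genes) rose and 5 fell at an adjusted p under 0.05 in limma, while 13.0% of all 22496 tested probe sets rose and 14.6% fell. The median log2 difference of the members was 0.40, against 0.00 over all tested probe sets. Of the 43 genes, 30 had rises only, 1 (Rps27l) had a fall only, 4 (Rpl22, Rpl41, Rpl7 and Rps24) had both, and 8 had no call. In 49 probe sets every NDM_RBX array lay above every NDM array and in 6 below, against 11.9% and 12.9% of all tested probe sets. The median was 0.41 over 44 small-subunit and 0.39 over 40 large-subunit probe sets.

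The shift depended on brightness and on the scaling. The 65 members with a mean log2 intensity of 14 or more had a median of 0.45 with 55 rises and 3 falls, while the 19 dimmer members had a median of 0.12 with 2 rises and 2 falls. The other probe sets of the brightest 1% of those tested lay higher too: 73 of the 123 that were no ribosomal proteins rose (59.3%, median 0.41), and all 42 members there rose (median 0.57). In the brightest 10%, which held 68 members, the 2098 other probe sets had a median of 0.023, with 25.5% rising and 23.2% falling. After quantile normalization 20 members rose and 8 fell, with 11.9% rising and 14.1% falling over all tested probe sets, and the members' median was 0.10, against -0.03 over all. The 20 rises (16 genes) were all among the 57, or 35.1% of them, and the 5 falls were all kept. The other 3 falls in that setting were second probe sets of Rpl7 and Rps27l, and Rps29. In that setting 17 of the 124 other probe sets in the brightest 1% rose (13.7%, median -0.04), and 9 of the 41 members there (median 0.10). Of the 2098 other probe sets in the brightest 10%, 22.5% rose and 24.1% fell (median 0.0051). The shares of the members were 23.8% and 9.52%, so their share of rises was near that of these bright probe sets. The level of cre and the 3′ to 5′ ratio of Actb, given above, moved between the same groups, while the ratio of Gapdh overlapped between them. Their part in the result was not tested.

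**Figure D2:**
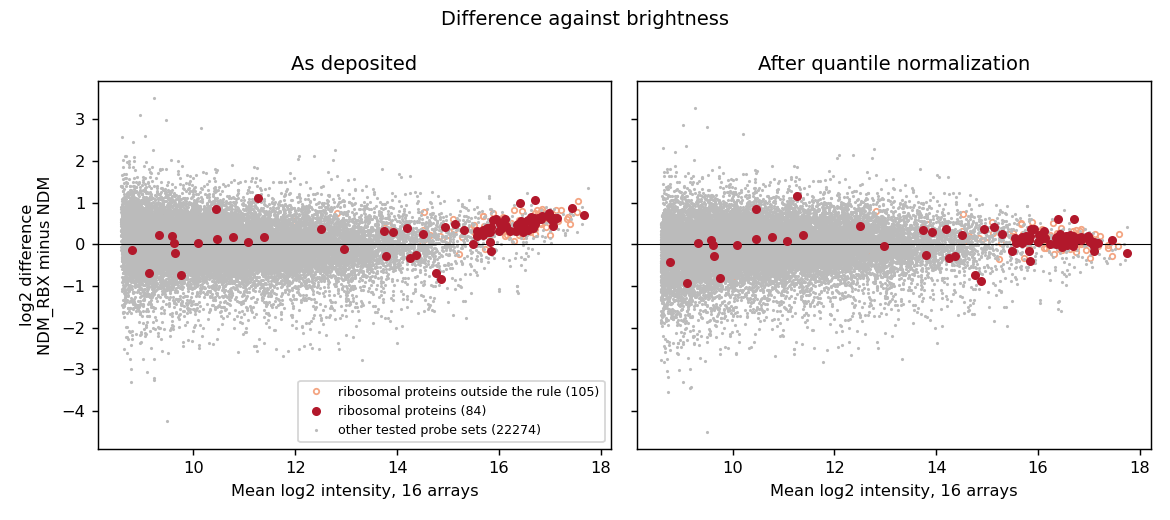
Log2 difference of NDM_RBX minus NDM against the mean log2 intensity over 16 arrays, for probe sets tested under both scalings, with the 84 members in red, 105 ribosomal protein probe sets outside the rule as open circles and other probe sets in grey, as deposited at left and after quantile normalization at right. As deposited the red points at the bright end lie above 0 together with the grey points there (medians of 0.57 and 0.41 in the brightest 1%, the open circles in neither), and after quantile normalization both lie near 0 (0.10 and -0.04).

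**Figure D3:**
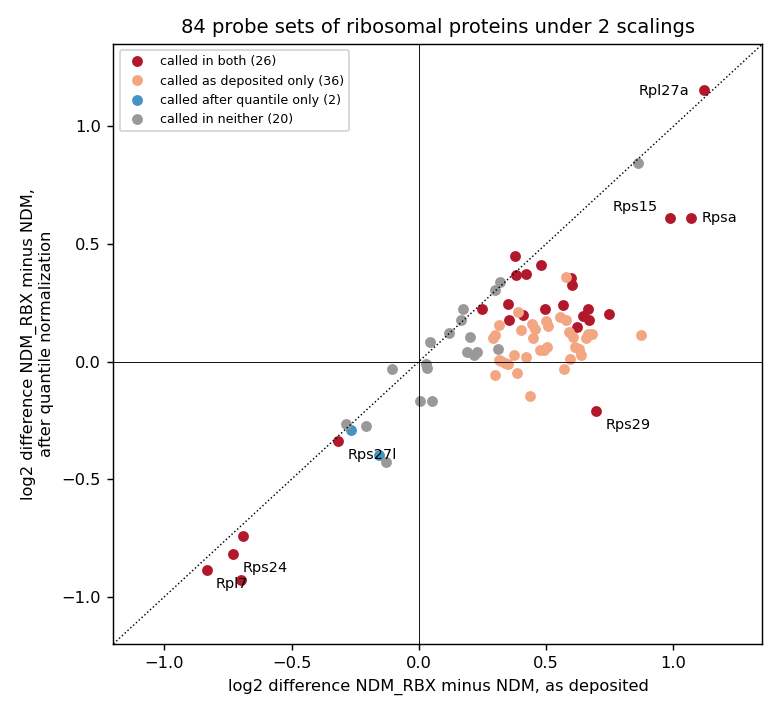
Log2 difference of NDM_RBX minus NDM for the 84 probe sets, as deposited (horizontal axis) and after quantile normalization (vertical axis), with the dotted line marking equal values and colours giving which scaling called the probe set. Rpl27a keeps its place near the line at 1.12 and 1.16, many bright members drop towards 0, and Rps29 changes sign.

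Rpl27a, a large-subunit protein, had the largest rise of any member. Its probe set 1437729_at had intensities of 3092, 3156, 4094 and 4258 in NDM_RBX and 1647, 1155, 2265 and 1773 in NDM. All NDM_RBX mice lay above all NDM mice. The log2 difference was 1.12 ± 0.18 (SE, adjusted p = 0.000229 in limma) as deposited and 1.16 after quantile normalization. This probe set is dim for a member, being among the 19 with a mean log2 intensity under 14, of which 2 rose. The gene's other probe set was below the filter.

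Rpsa, which serves both in the small subunit and at the cell surface as a laminin receptor, came second. Probe set 1448245_at had 143089, 150444, 164732 and 182578 in NDM_RBX, against 70273, 71842, 91054 and 72614 in NDM. The groups did not overlap, although NDM replicate 3 stood above the other NDM mice. The log2 difference was 1.07 ± 0.10 (SE, adjusted p = 3.21e-06 in limma) as deposited and 0.61 after quantile normalization.

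Rps15, a small-subunit protein near the decoding site, rose in both of its probe sets. Probe set 1416088_a_at had 124832, 117370, 126702 and 138419 in NDM_RBX, against 57610, 59856, 77073 and 62724 in NDM. The lowest NDM_RBX mouse was well above the highest NDM mouse. The log2 differences were 0.99 ± 0.09 and, in 1416089_at, 0.60 ± 0.09 (SE, adjusted p = 3.21e-06 and 9.39e-05 in limma). After quantile normalization they were 0.61 and 0.33.

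The stalk proteins Rplp0 and Rplp2 form the arm of the large subunit that recruits elongation factors. Rplp2 (1415879_a_at) had 110053, 129596, 130758 and 149002 in NDM_RBX and 75893, 79578, 93991 and 77504 in NDM. Rplp0 (1419441_at) had 118767, 118743, 117148 and 107754 in NDM_RBX and 70733, 69210, 99184 and 78432 in NDM. Neither gene's groups overlapped. Log2 differences were 0.66 ± 0.10 for Rplp2 and 0.56 ± 0.10 for Rplp0 (SE, adjusted p = 0.000105 and 0.000678 in limma), and after quantile normalization 0.22 and 0.19, of which only that of Rplp2 was called.

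Other large rises as deposited shrank under quantile normalization. Rpl13a (1455485_x_at) differed by 0.87 as deposited and 0.11 after it, and Rps20, a small-subunit protein, by 0.75 and 0.20 in 1456373_x_at. Rps29 (1438859_x_at), the brightest member, had 233079, 262718, 284530 and 317038 in NDM_RBX and 152127, 154541, 205327 and 165251 in NDM. The groups were apart, and the log2 difference was 0.70 ± 0.11 (SE, adjusted p = 0.000133 in limma). After quantile normalization it turned to -0.21 and was called as a fall. Further probe sets called as rises under both scalings included Rpl4, Rpl19, Rpl8, Rps9, Rps28 and Rps6, the target of S6 kinase, which were named after their values were seen.

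**Figure D4:**
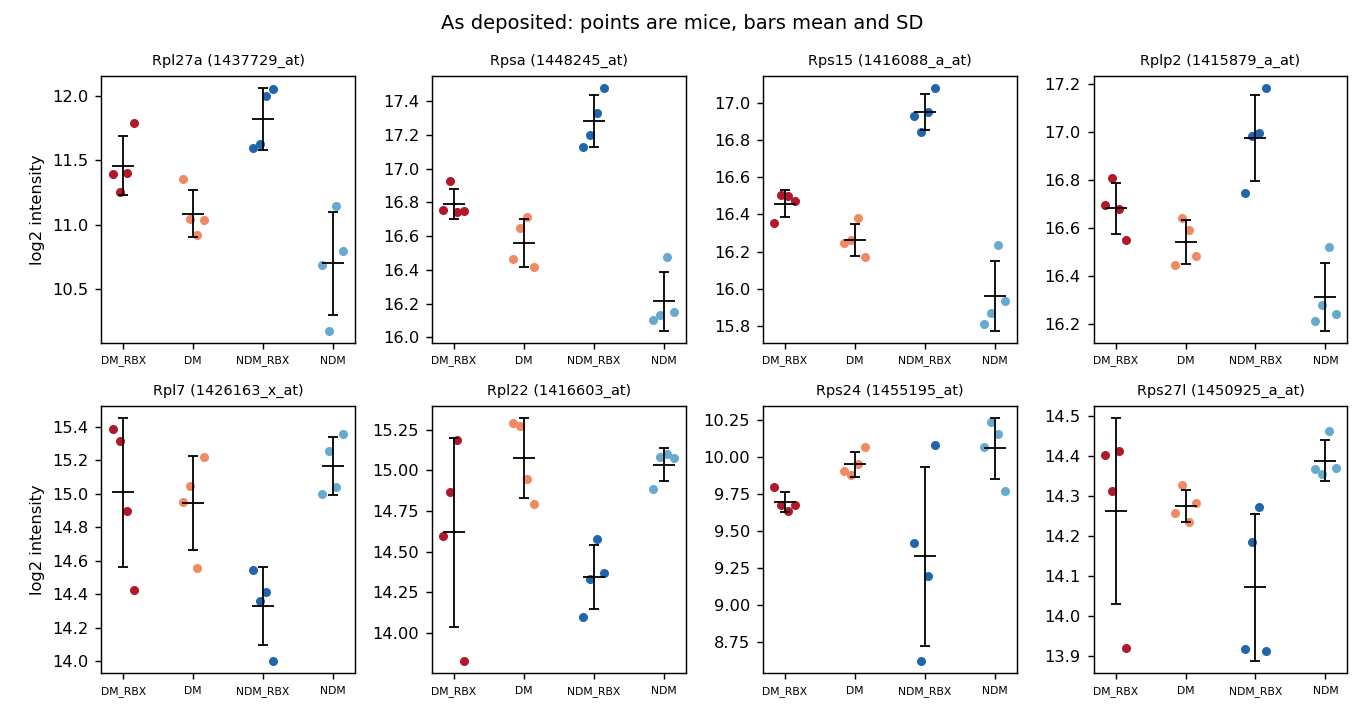
Log2 intensity as deposited in every mouse (points) with group mean and SD (bars) for 4 members that rose in NDM_RBX against NDM (top row) and 4 that fell (bottom row), each panel with its own axis. In the top row NDM_RBX is the highest group and NDM the lowest; in the bottom row NDM_RBX is the lowest.

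The 5 falls held under both scalings. Rpl7, a large-subunit protein, had 23911, 21031, 21819 and 16405 in NDM_RBX and 32726, 39198, 33719 and 42031 in NDM in probe set 1426163_x_at. Every NDM_RBX mouse was below every NDM mouse, and the log2 difference was -0.83 ± 0.18 (SE, adjusted p = 0.00258 in limma), or -0.89 after quantile normalization. Rpl22, which in mice is dispensable for most tissues but needed by developing T cells, had 17490, 20598, 24415 and 21173 in NDM_RBX and 30191, 34613, 35068 and 34511 in NDM in 1416603_at. These groups were apart too, with a log2 difference of -0.69 ± 0.20 (SE, adjusted p = 0.0161 in limma). Rps27l, a p53-induced paralog of Rps27, had 15471, 18616, 19787 and 15424 in NDM_RBX and 21141, 20943, 22596 and 21175 in NDM in 1450925_a_at. It differed by -0.32 ± 0.11 (SE, adjusted p = 0.0349 in limma), and its other 2 tested probe sets also lay below 0.

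The remaining falls were in dim probe sets. Rps24 (1455195_at), a small-subunit protein, had 687, 394, 586 and 1084 in NDM_RBX and 1075, 1207, 1144 and 874 in NDM, so 1 NDM_RBX mouse lay within the range of NDM. Rpl41 (1433530_at), the smallest ribosomal protein, had 556, 285, 476 and 435 in NDM_RBX and 792, 701, 610 and 669 in NDM. The log2 differences were -0.73 ± 0.23 and -0.70 ± 0.24 (SE, adjusted p = 0.0246 and 0.0343 in limma). The call on Rps24 was lost without NDM replicate 1, 2 or 3 or NDM_RBX replicate 2 or 3, that on Rpl41 without NDM replicate 1, 2 or 4 or NDM_RBX replicate 2 or 4, and that on Rps27l without any 1 NDM mouse or NDM_RBX replicate 1 or 4.

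Probe sets of 1 gene did not always move together. Of 19 genes with more than 1 tested probe set, 6 had differences of opposite sign in NDM_RBX against NDM, and in 4 of them both signs were called. Rps24 had a fall in 1455195_at beside rises of 0.67, 0.60, 0.58 and 0.51 in its bright probe sets. Rpl41 had a fall in 1433530_at beside rises of 0.67 in 1455578_x_at and 0.58 in 1422623_x_at. Rpl7 had the fall of -0.83 beside a rise of 0.48 in 1415979_x_at. The suffix _x_at marks probes that can also bind other transcripts, and 40 of the 100 members carry it. The fall of Rpl7 was in such a probe set, while those of Rps24 and Rpl41 were in probe sets ending in _at alone. Among the 38 tested members with _x_at 30 rose and 1 fell (median 0.50). Among the 18 ending in _at alone 6 rose and 3 fell (median 0.18). Binding of other transcripts was not tested. The probe sets with several symbols behaved like the members, with 74 rises and 1 fall among 99 tested (median 0.42), and 31 rises and 5 falls after quantile normalization.

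**Figure D5:**
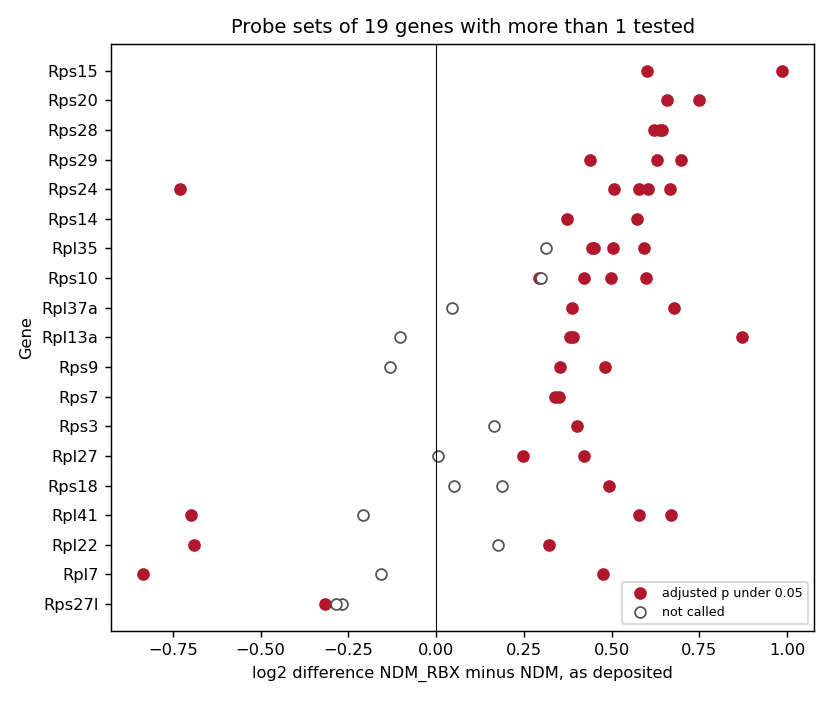
Log2 difference of NDM_RBX minus NDM as deposited for each tested probe set of the 19 genes with more than 1, with filled points called at an adjusted p under 0.05 and open points not called. Rps24, Rpl41, Rpl22 and Rpl7 hold called points on both sides of 0.

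Diabetes without RBX gave no call among the members. In DM against NDM 0 of 84 passed in limma, with a smallest adjusted p of 0.0945, while 0.151% of all tested probe sets rose and 0.218% fell. At an unadjusted p under 0.05 there were 28, against 13.5% of all tested. With array weights 24 rose, while 4.04% of all rose and 3.93% fell. The median was 0.18, against 0.010 over all and 0.17 over the other probe sets of the brightest 1%, and 74 of the 84 lay above 0. After quantile normalization 0 passed, with 9 at an unadjusted p under 0.05 (12.4% of all) and a median of 0.062, while 0.111% of all rose and 0.222% fell. This comparison and NDM_RBX against NDM share the NDM arrays. Without NDM replicate 3, 5 members were called.

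Rpl41 (1422623_x_at) had 68682, 68333, 70893 and 71897 in DM, against 46285, 44648, 55543 and 40354 in NDM. These groups were apart, with a log2 difference of 0.59 ± 0.16 (SE, adjusted p = 0.0945 in limma). The 4 tested probe sets of Rpl41 did not go together here and ran from -0.31 to 0.59. Rpl39, which lines the exit tunnel, differed by 0.72 ± 0.47 (SE) and had the largest residual SD of the members, 0.803. The lowest difference was -0.63 ± 0.27 (SE) in Rpl37a (1416218_x_at), a zinc-binding large-subunit protein. That probe set had a large residual SD too, 0.435, and the gene's 3 tested probe sets ran from -0.63 to 0.17. The median residual SD was 0.142 over the members and 0.270 over all tested probe sets, and Rpl8, Rpl27 and Rpl19 were the steadiest members.

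RBX in diabetic mice gave no call either. In DM_RBX against DM 0 of 84 passed in limma, with 7 at an unadjusted p under 0.05 (10.4% of all) and a smallest adjusted p of 0.258, while 0.0178% of all tested probe sets rose and 0.0356% fell. The median was 0.092, against -0.0031 over all and 0.079 over the other probe sets of the brightest 1%. After quantile normalization 0 passed, with 5 at an unadjusted p under 0.05 (9.94% of all) and a median of 0.022, while 0.0622% of all rose and 0.0445% fell. The largest rise was 0.57 ± 0.26 (SE) in Rps27, and the largest fall was -0.51 ± 0.16 (SE) in Rps10 (1439374_x_at), a small-subunit protein mutated in some human Diamond-Blackfan anaemia. The 5 tested probe sets of Rps10 ran from -0.51 to 0.10.

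Diabetes under RBX gave few calls. In DM_RBX against NDM_RBX 1 member rose and 4 fell (1.19% and 4.76%), while 5.31% of all tested probe sets rose and 2.15% fell. Of the other probe sets in the brightest 10%, 10.0% rose and 6.01% fell, so both shares of the members were below these. The members' median was -0.17, against 0.0013 over all and -0.15 over the other probe sets of the brightest 1%. After quantile normalization 1 member rose and 2 fell (1.19% and 2.38%) with a median of -0.021, while 5.60% of all rose and 2.54% fell. The other probe sets in the brightest 10% then had 11.5% rising and 4.91% falling. Rpl7 (1426163_x_at) rose, with 42935, 40813, 30583 and 22044 in DM_RBX, against the NDM_RBX values above. Of the DM_RBX mice 1 lay within the NDM_RBX range, and the log2 difference was 0.68 ± 0.18 (SE, adjusted p = 0.0285 in limma). Rps15 (1416088_a_at) had 83890, 93077, 92694 and 90990 in DM_RBX, all below the NDM_RBX mice, with a log2 difference of -0.49 ± 0.09 (SE, adjusted p = 0.00374 in limma). Rpsa had 110477, 124496, 109771 and 110014 in DM_RBX, also all below, with -0.49 ± 0.10 (SE, adjusted p = 0.00757 in limma). The other 2 falls were in Rpl13a (-0.42 and -0.34), and quantile normalization kept Rpl7, Rps15 and Rpsa only. The count of 5 became 15 without NDM_RBX replicate 1, 11 without NDM replicate 3, 3 without DM_RBX replicate 2, and 2 without NDM_RBX replicate 4 or DM_RBX replicate 1 or 3.

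The effect of RBX differed between diabetic and non-diabetic mice for some members. In this interaction, the effect in diabetic minus that in non-diabetic mice, 1 member was called positive and 24 (17 genes) negative. Over all tested probe sets 5.89% were called positive and 3.97% negative. Of the other probe sets in the brightest 10%, 11.87% were called positive and 10.53% negative, against 1.19% and 28.57% of the members. A negative term does not mean that the level fell. The members' median was -0.34, against -0.0063 over all and -0.33 over the other probe sets of the brightest 1%. After quantile normalization 1 member was called positive and 7 negative (1.19% and 8.33%). Of all tested probe sets 5.63% were then called positive and 3.68% negative. The other probe sets in the brightest 10% had 13.63% positive and 8.39% negative, so the members' share of negative calls was near theirs. Of the members' 24 negative calls 6 were shared, and their median was -0.081 after quantile normalization. Rpsa (-0.84 ± 0.15, adjusted p = 0.00171 in limma) and Rps15 (1416088_a_at, -0.79 ± 0.13, adjusted p = 0.00111 in limma) were called negative under both scalings. Rpl7 (1426163_x_at) had a positive term of 0.90 ± 0.26 (SE, adjusted p = 0.0343 in limma), a call that leaving out any of several single arrays ended. The count of 25 was 41 without NDM replicate 3 and 6 without DM replicate 3. It was 10, 8 and 9 without NDM replicate 1, 2 or 4, 15 without NDM_RBX replicate 4, 11 without DM replicate 2, and 10, 12 and 14 without DM_RBX replicate 1, 3 or 4.

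Lists of other genes of translation are read in NDM_RBX against NDM beside the 13.0% of all tested probe sets that rose and the 14.6% that fell, and no difference from the members was tested. Among elongation and release factors 3 of 12 tested genes rose and 4 fell. Eef1a1, which brings aminoacyl-tRNA to the ribosome, differed by 0.75 as deposited and 0.03 after quantile normalization, and Eef1d, part of its exchange factor, by 0.63 and 0.62. Eef2k differed by -0.82 and -0.76 and Eif5a2 by -1.26 and -1.35, called as falls under both scalings. The median of the 12 genes as deposited was -0.16. Among initiation factors 6 of 32 rose and 3 fell, and Eif3f differed by 0.57 and 0.51. Of 21 further transcripts listed for a TOP motif, 9 are also in the elongation or initiation lists. The remaining 12 had 3 rises and 1 fall (median 0.042), and 0 rises and 1 fall after quantile normalization. Tpt1, one of them, differed by 0.90 and 0.00. Fau, the fusion of a ubiquitin-like protein with a small-subunit protein, rose by 0.66 as deposited and 0.52 after quantile normalization. Rps3a1, a small-subunit protein whose symbol lies outside the rule, differed by 0.22 as deposited, which was not called, and by -0.34 after quantile normalization, which was called as a fall.

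Genes that build ribosomes gave 7 rises and 2 falls among 47, and those of mTOR and S6 kinase signalling 4 and 4 among 26, beside the same 13.0% and 14.6% of all. The 76 mitochondrial ribosomal proteins, made from nuclear genes for the organelle's own ribosome, had 9 rises and 4 falls with a median of 0.06, and 13 and 2 with a median of 0.11 after quantile normalization. Markers of cell types moved between the same groups. Of 12 smooth muscle markers 2 rose and 8 fell (median -1.02), of 12 endothelial markers 11 rose (0.94), of 12 macrophage markers 8 rose (0.67), of 10 fibroblast markers 5 rose (0.30), and of 6 adipocyte markers 2 rose (1.26). After quantile normalization 0 smooth muscle markers rose and 10 fell, 3 fibroblast markers rose and 2 fell (median 0.012), and the counts of the other 3 lists did not change. Summed smooth muscle markers ranged from 484865 to 695012 in NDM_RBX and from 696252 to 753151 in NDM, and summed macrophage markers from 327073 to 462891 in NDM_RBX and from 230766 to 347837 in NDM. Their part in the ribosomal protein result was not tested.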

How the data were processed

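The authors deposited intensity values on a linear scale for 45101 probe sets, made with MAS5 per the submitters' processing notes, with a version not given in the sources used here. Biotinylated cRNA came from 2 ug of Trizol-extracted RNA per the labels' protocols. The trimmed mean was equal on every array. Gene names came from the platform annotation. Intensities were log2-transformed without an offset. The 22496 probe sets with a mean above the median of all, without 64 controls, entered a limma fit (version 3.58.1, R 4.3.3) of all 16 arrays (4 group means, intensity trend, two-sided p-values, Benjamini-Hochberg over all tested, threshold 0.05). Tables and figures used Python 3.11.15 with pandas 2.3.3 and matplotlib 3.10.9. The number of arrays limits the precision. In data simulated for DM against NDM over 22496 probe sets, 16 of 100 changes of 0.5 and 68 of 100 changes of 1 (log2) were recovered. The changed probe sets were drawn from all tested, whose median residual SD was 0.270, against 0.142 over the members. These shares therefore do not describe the members, for which recovery was not simulated. Genes named were the called members (up to 10 each way), the 3 largest rises and falls of each comparison, the 5 brightest and dimmest, the stalk proteins and Rpsa, paralogs ending in l, the 3 with the largest and smallest residual SD, the 3 widest spreads among probe sets, and up to 4 of each other list. Alternatives were quantile normalization, 75th percentile centring, other filters, an offset, 1 probe set per gene, no cross-hybridising suffixes, other variance models, a replicate block, fits of single pairs of groups, and leaving out each array. The members and lists were chosen with earlier results of these data known.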

Additional observations from a re-analysis of the deposited data

Results flagged for a closer look

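In 12 of 152 groups of 4 arrays among the named probe sets, 1 array lay far from the other 3 by Dixon's criterion. Chance meets it in about 1 in 20 groups. Some of these probe sets were named for large differences or residual SDs, and all share the same arrays. The 1 in 20 rate is therefore no measure for these groups. NDM replicate 3 was high in Rpsa (91054), Rpl19 (62425), Rps10 (1434854_a_at, 61377) and Rps27l (1450925_a_at, 22596). DM_RBX replicate 4 was low in Rpl19 (60266) and Rps27l (1423254_x_at, 10833), and DM_RBX replicate 2 was high in Rpsa (124496). Rplp0 was high in DM replicate 2 (105629) and low in NDM_RBX replicate 4 (107754). Rpl39 was low in DM replicate 4 (529), Rpl22 (1416603_at) was low in NDM replicate 1 (30191), and Rpl37a (1416218_x_at) was high in NDM replicate 2 (3511). The median log2 level of the members, examined in 4 further groups, was apart in DM replicate 2 (16.07).

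The effect of RBX differed between diabetic and non-diabetic mice, by the interaction term in limma, in 11 named probe sets. Rpl7 (1426163_x_at) had 0.90. Negative values were found for Rpsa (-0.84), Rpl41 (1422623_x_at, -0.84, and 1455578_x_at, -0.58), Rps10 (1439374_x_at, -0.81, and 1434854_a_at, -0.57), Rps15 (-0.79), Rpl13a (-0.68), Rps20 (-0.60), Rplp0 (-0.54) and Rps29 (-0.54). Of these probe sets, only Rpl7, Rpsa, Rps15, Rpl41 (1422623_x_at) and Rps10 (1439374_x_at) were also called after quantile normalization.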

How the results depend on the processing

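Over the named probe sets, 1107 results under an alternative kept direction and side of the threshold, 123 lost the call, 5 gained one and 4 reversed, all of Rps29 (-0.21 in NDM_RBX against NDM and 0.11 in the interaction, after quantile normalization with and without the replicate block). For NDM_RBX against NDM (62 calls), quantile normalization left 28 (median 0.10), and 27 (0.10) with the replicate block; 1 probe set per gene gave 33 and leaving out _x_at and _s_at probe sets 29. For DM against NDM (0 calls), array weights gave 24, quantile normalization with the block 1 (median 0.062, as without the block) and only the groups compared 1. For DM_RBX against NDM_RBX (5 calls), quantile normalization with and without the block gave 3 (median -0.021), no filter, 1 probe set per gene and only the groups compared 3 each, a 70th percentile filter 9, a robust variance 8, and no trend, array weights and no _x_at or _s_at probe sets 2 each. For the interaction (25 calls), quantile normalization gave 8 (median -0.081) and 6 (-0.081) with the block, no filter 7, 1 probe set per gene 15, no _x_at or _s_at probe sets 10 and no trend 4. Group levels after quantile normalization were 16.10 in NDM_RBX and 15.93 in NDM. Where no value is given, the cause was not tested.

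Leaving out 1 array gave 0 to 5 calls (median 0.14 to 0.26) in DM against NDM, 0 to 0 (0.06 to 0.15) in DM_RBX against DM, 50 to 66 (0.36 to 0.46) in NDM_RBX against NDM, 2 to 15 (-0.20 to -0.11) in DM_RBX against NDM_RBX and 6 to 41 (-0.41 to -0.30) in the interaction. Leaving out 1 array after quantile normalization, in fits added after seeing the data, gave 20 to 33 calls in NDM_RBX against NDM. Replicate numbers did not pair the mice: deviations of same-numbered arrays correlated between -0.11 and 0.10 (median 0.01). With the replicate block NDM_RBX against NDM kept 62 calls.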
